A study of Mus musculus with 6 samples.

Results

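The genes described here are 9 interferon-induced direct antiviral effectors, Mx1, Mx2, Rsad2, Cmpk2, Bst2, Ifitm3, Eif2ak2, Samd9l and Isg20. They were chosen by name, as probe sets whose platform annotation gives exactly 1 gene symbol that is on this list. All 9 were found, each with 1 probe set and with no further probe set shared with another gene, among 22180 genes with such a probe set. They were read on 6 Mouse Gene 2.0 ST arrays, 3 of spleen monocytes and 3 of tumor monocytes, with 1 array per sample. Both groups came from mice that had been given Th9 cells, a helper T cell type, 10 days earlier, so the treatment is shared and no mice without Th9 cells are compared here. The cells had been sorted by flow cytometry as CD11b+, CD11c-, Ly6C-high inflammatory monocytes, from spleen in 1 group and from tumor in the other, and the comparison asks how tumor and spleen cells of treated mice differ. The strain field of the labels holds only the word Th9, and neither the mouse strain and age nor the kind of tumor is given in the sources used here. Whether a group's 3 samples are separate animals is likewise not stated, and the p-values then reflect sample-to-sample spread that may be technical.

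Interferons bind receptors that activate the kinases Jak1 and Tyk2, and the transcription factor complex ISGF3, which includes Stat2 and Irf9, then switches on a large set of antiviral genes. The genes described here act on the virus or on the machinery it uses, at different steps of infection. Ifitm3 hinders fusion of viruses in endosomes, Mx proteins trap viral nucleoproteins, viperin (Rsad2) and its partner enzyme Cmpk2 act on nucleotides, PKR (Eif2ak2), Samd9l and Isg20 act on translation or RNA, and tetherin (Bst2) holds new particles at the cell surface. In monocytes and macrophages these genes are widely used as a readout of interferon exposure.

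Promoter sequence was at hand for 7 of the 9 genes (all but Mx1 and Mx2), from RefSeq (build GRCm38.p6), as windows of 250 bases before to 50 after an annotated start. An IRF element, the core of the site that ISGF3 and other interferon regulatory factors bind, was searched as the letters GAAA, any 2 bases and GAAA again, on both strands, with overlapping matches counted. It was found in 4 of these 7 genes, Rsad2, Bst2, Ifitm3 and Eif2ak2, against 3.44% of all 32851 promoter windows. It was not found in the windows of Cmpk2, Samd9l or Isg20 (3 windows for Isg20), which says only that these letters are not in those windows. The matches are shown in stretches of 30 bases, read 5′ to 3′ on the strand of the gene, with the matched letters in capitals, because these are the letters that the members with a match share.
Rsad2 (chr12:26456553-26456582, minus strand): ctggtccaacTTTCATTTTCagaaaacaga
Bst2 (chr8:71537580-71537609, minus strand): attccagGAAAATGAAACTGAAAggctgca
Ifitm3 (chr7:141010715-141010744, minus strand): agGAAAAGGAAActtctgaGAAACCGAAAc
Eif2ak2 (chr17:78882535-78882564, minus strand): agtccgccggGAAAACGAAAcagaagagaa
In Rsad2 the match lies on the opposite strand and its first base is at -120 from the start, where the first transcribed base counts as 1. Bst2 holds 2 matches that overlap, at -130 and -124. Ifitm3 holds 2 separate matches, at 3 and 20 after the start, and Eif2ak2 has 1, at 19 after the start. A second motif, the STAT-binding GAS element, searched as TTCNNNGAA, was found in Bst2 (-136), Ifitm3 (14), Eif2ak2 (-178) and Isg20 (-73), and in 8.3% of all windows. The GAS matches of Bst2 and Ifitm3 overlap an IRF element match. Among tested genes with a promoter window, each counted once, the IRF element stood in 13.2% of 823 genes called higher in tumor, 2.19% of 730 called lower and 3.58% of all 14267. The GAS element stood in 10.3%, 6.44% and 8.63% of the same groups. In a list of other antiviral effectors, described below, 12 of 27 genes with a window held the IRF element. A match is a description of sequence and not a measured binding site.

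All 9 genes rose in the tumor samples. The 3 tumor values of each gene lay above its 3 spleen values, which held for 9.81% of the 18458 genes tested. Each was called higher, meaning a limma adjusted p under 0.05, while 5.73% of all tested genes were called higher. Their differences, tumor minus spleen on the log2(intensity + 1) scale, had a median of 2.91, beside -0.05 over all tested genes. All 9 changed at least 2-fold, 7 at least 4-fold and 4 at least 8-fold, beside 3.74%, 1.21% and 0.52% of all tested genes called higher at those sizes. The members had been named with earlier results of these arrays known. In bulk samples, a changed share of cells of a type and a changed amount of RNA per cell cannot be told apart.

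The Mx genes encode dynamin-like GTPases, and in the mouse the Mx1 protein acts in the nucleus and the Mx2 protein in the cytoplasm. Many inbred mouse strains carry defective alleles of both, and the strain used here is not named. Mx2 had an intensity of 19.9, 22.0 and 22.5 on spleen arrays 1 to 3, and of 970.7, 928 and 929.5 on tumor arrays 1 to 3. Spleen values were all close to the array medians and tumor values were all far above them, with no overlap. Mx2 thereby rose by 5.39 ± 0.14 (log2 difference ± SE, limma adjusted p = 7.8e-07), or 42.0-fold. It ranked 8 by size of rise among all tested genes. Its level in spleen, 4.49 ± 0.09 (log2, SD, n = 3), is near the 25th percentile of tested genes (4.42), where background limits the size of a fold. With a pseudocount of 16 in place of 1 the difference was 4.68.

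Mx1 had intensities of 150.7, 156.5 and 163 on the spleen arrays and of 1214, 1286 and 1056 on the tumor arrays. The groups did not overlap, and tumor 3 was the lowest tumor array for this gene. Mx1 rose by 2.91 ± 0.14 (7.50-fold, limma adjusted p = 7.9e-06). The log2 ratio of Mx2 to Mx1 on the same array was higher in tumor by 2.49 ± 0.09, and by 2.31 to 2.62 within the 3 array numbers. The size of this shift depends on the dim spleen values of Mx2, and with a pseudocount of 16 the differences of Mx2 and Mx1 were 4.68 and 2.79. An exact permutation test of that shift gave p = 0.1, two-sided, the smallest that 3 against 3 arrays allow.

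**Figure D1:**
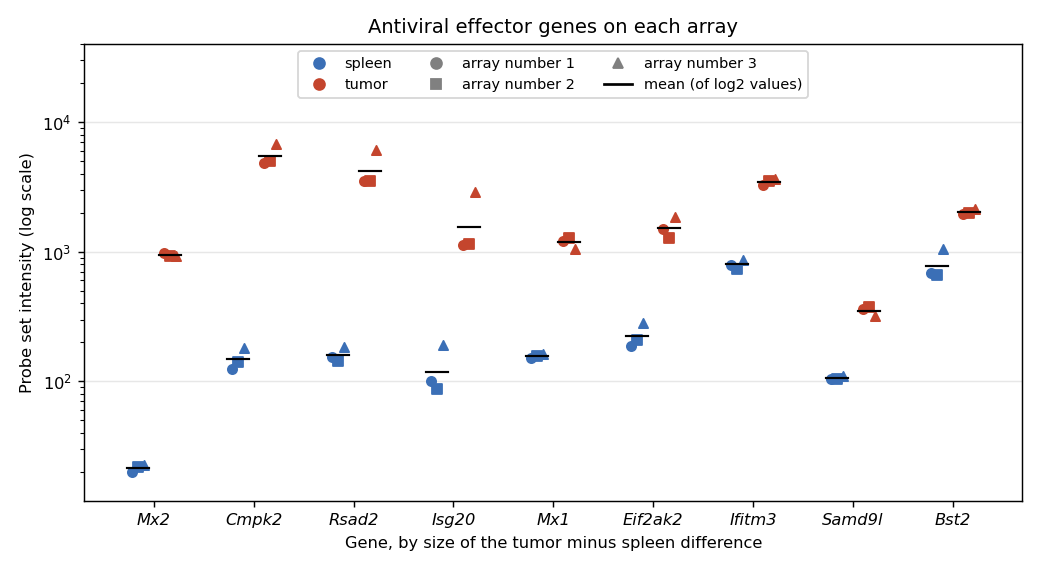
Probe set intensity (log axis) of the 9 effector genes on each array, spleen in blue and tumor in red, with the array number as marker shape and the mean of the log2 values as a bar. For every gene the 3 tumor points lie above the 3 spleen points, and the gap is widest for Mx2 (42.0-fold, though below Cmpk2 with a pseudocount of 16) and narrowest for Bst2 (2.60-fold).

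Rsad2 encodes viperin, a radical SAM enzyme that turns CTP into a chain-terminating nucleotide. Its intensities were 154.8, 143 and 184.7 in spleen and 3498, 3496 and 6053 in tumor. Tumor 3 stood apart from the other tumor arrays, which were nearly equal. Rsad2 rose by 4.70 ± 0.24 (26.1-fold, limma adjusted p = 8.2e-06), rank 21 among the rises.

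Cmpk2 encodes a mitochondrial nucleotide kinase that supplies CTP precursors, and lies next to Rsad2 in the genome. It had 124, 142 and 182 in spleen and 4864, 5032 and 6808 in tumor, with number 3 the highest array of each group. Cmpk2 rose by 5.21 ± 0.20 (37.0-fold, limma adjusted p = 2.4e-06), rank 15. The ratio of Cmpk2 to Rsad2 was higher in tumor by 0.51 ± 0.15 on the log2 scale, a small gap beside the rise of either gene (exact permutation p = 0.1, two-sided).

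Rsad2 and Cmpk2 point away from each other, with 12763 bases between their annotated starts. The 250 bases before each start are printed because these 2 genes rose together, while the IRF element, in capitals, is in the window of Rsad2 only.
Rsad2 (chr12:26456453-26456702, minus strand, GRCm38.p6): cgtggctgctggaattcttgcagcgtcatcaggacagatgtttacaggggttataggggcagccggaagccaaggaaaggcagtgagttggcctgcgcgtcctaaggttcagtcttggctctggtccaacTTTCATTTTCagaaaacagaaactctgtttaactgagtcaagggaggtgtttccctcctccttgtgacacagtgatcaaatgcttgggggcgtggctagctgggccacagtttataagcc
Cmpk2 (chr12:26468965-26469214, plus strand, GRCm38.p6): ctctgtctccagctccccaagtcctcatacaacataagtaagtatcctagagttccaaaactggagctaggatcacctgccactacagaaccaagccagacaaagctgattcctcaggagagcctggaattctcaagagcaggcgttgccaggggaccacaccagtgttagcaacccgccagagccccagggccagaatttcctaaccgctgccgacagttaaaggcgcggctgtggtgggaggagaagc
The genes flanking this pair were not called. Rnf144a, on the side of Rsad2, stood at 0.00 ± 0.21 (limma adjusted p = 0.998), and Sox11, on the side of Cmpk2, at -0.27 ± 0.16 (adjusted p = 0.395).

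The members that act on virus entry and release had differences of 2.12 and 1.38. Ifitm3, a small membrane protein that blocks fusion in endosomes, had intensities of 792.5, 741 and 866 in spleen and 3298, 3488 and 3624 in tumor. Both groups were tight and far apart. Ifitm3 rose by 2.12 ± 0.14 (4.34-fold, limma adjusted p = 3.9e-05).

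Bst2, or tetherin, had 684, 658 and 1049 in spleen, and 1962, 1977 and 2152 in tumor. Spleen 3 was well above the other spleen arrays, and the groups still did not overlap. Bst2 rose by 1.38 ± 0.20 (2.60-fold, limma adjusted p = 0.0032), the smallest rise of the 9 genes. It was the one member that did not pass a test against a 1.5-fold change (limma treat, adjusted p = 0.0632). Bst2 is also used in the mouse as a surface marker of plasmacytoid dendritic cells. In the marker list of that cell type 2 of 7 tested genes rose, Bst2 itself and the transcription factor Tcf4 (1.92 ± 0.23, limma adjusted p = 0.0011), and 0 fell. Of all tested genes 5.73% were called higher and 4.85% lower. The counts in this list were the same at an unadjusted p under 0.05. The defining markers Siglech (log2 level 4.52 in spleen and 4.62 in tumor) and Ccr9 (3.98 and 4.05) were near the floor in both groups and were not called. The mean log2 level of the 8 measured markers was 5.40 to 5.91 on the spleen arrays and 5.76 to 6.31 on the tumor arrays. That mean includes Bst2 itself and Tcf4. The other tested markers, Siglech, Ccr9, Ly6d, Pacsin1 and Cox6a2, had differences between -0.19 and 0.23 and were not called. Klk1 was below the filter, at a log2 level of 3.18 in spleen and 2.76 in tumor. The part of such cells in the rise of Bst2 was not tested.

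Members that act on RNA and translation rose by between 1.71 and 3.70. Eif2ak2 encodes PKR, the kinase that halts translation by phosphorylating the initiation factor eIF2 when it meets double-stranded RNA. Its intensities were 188.6, 209.9 and 281 in spleen and 1490, 1274 and 1855 in tumor, highest on number 3 in both groups. Eif2ak2 rose by 2.76 ± 0.21 (6.79-fold, limma adjusted p = 7.5e-05).

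Samd9l, which restricts poxviruses and slows translation, had 104, 105 and 111 in spleen and 363, 377 and 317 in tumor. Tumor 3 was its lowest tumor array, as for Mx1, and the groups were apart. Samd9l rose by 1.71 ± 0.14 (3.28-fold, limma adjusted p = 1.4e-04).

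Isg20, a 3′ to 5′ exonuclease that degrades RNA, had 101, 86.7 and 190.5 in spleen and 1133, 1147 and 2877 in tumor. In both groups number 3 was far above the other arrays, and all tumor values were above all spleen values. Isg20 rose by 3.70 ± 0.41 (13.0-fold, limma adjusted p = 7.5e-04), with the largest error of the 9 genes in this fit. With the array number as a block its SE was 0.11 (limma adjusted p = 1.0e-06), below those of Bst2 (0.13) and Rsad2 (0.12).

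The order of the rises was Mx2, Cmpk2, Rsad2, Isg20, Mx1, Eif2ak2, Ifitm3, Samd9l and Bst2. Of the 8 gaps between neighbours in this order, 4 did not exceed the spread of the arrays, since tumor and spleen ratios of the 2 genes overlapped. These were Mx2 over Cmpk2 (0.18 ± 0.20), Isg20 over Mx1 (0.79 ± 0.62), Mx1 over Eif2ak2 (0.14 ± 0.28) and Samd9l over Bst2 (0.33 ± 0.22). Their exact permutation p-values lay between 0.3 and 0.7 (0.4 to 0.7 after Benjamini-Hochberg adjustment over the 8 gaps). Ratios of the other 4 neighbours did not overlap, with gaps of 0.51 ± 0.15 for Cmpk2 over Rsad2, 1.01 ± 0.30 for Rsad2 over Isg20, 0.65 ± 0.19 for Eif2ak2 over Ifitm3 and 0.41 ± 0.11 for Ifitm3 over Samd9l. Each of these had an exact p = 0.1 (0.2 adjusted), the smallest p that 3 against 3 arrays allow, so this test cannot separate them. Mx2 is dim in spleen, and with a pseudocount of 16 its difference (4.68) came below that of Cmpk2 (5.07).

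Close relatives of these genes came from a list of 18 with 17 tested. Of these 17, 1 rose and 1 fell (limma adjusted p under 0.05), beside 5.73% of all tested genes called higher and 4.85% called lower, and the median difference was -0.04. With the array number as a block, 4 rose and 4 fell, beside 11.7% and 17.3% of all tested genes. Dynamins, the cellular kin of Mx proteins, stood at -0.04 ± 0.20 (Dnm1), -0.25 ± 0.24 (Dnm2), -0.02 ± 0.18 (Dnm3) and 0.57 ± 0.20 (Dnm1l, limma adjusted p = 0.13, and 0.0076 with the block). Cmpk1, the cytosolic kinase of the same nucleotides as Cmpk2, stood at 0.03 ± 0.23, and the thymidylate kinase Dtymk at -0.42 ± 0.20 (limma adjusted p = 0.281, and 0.0455 with the block). Exonuclease relatives of Isg20 stood at -0.19 ± 0.21 (Isg20l2), -0.04 ± 0.19 (Aen, its neighbour in the genome) and 0.35 ± 0.16 (Rexo4, limma adjusted p = 0.247, and 0.0270 with the block).

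The Ifitm family was split. Ifitm1 rose by 1.55 ± 0.17 (limma adjusted p = 6.2e-04), while Ifitm2 stood at 0.38 ± 0.16 (adjusted p = 0.228, and 0.0256 with the block). Ifitm6 (0.02 ± 0.27), Ifitm10 (-0.12 ± 0.15) and Ifitm5 (-0.35 ± 0.24) were not called. Ifitm1, Ifitm2 and Ifitm6 all lie beside Ifitm3. On the same arrays the ratio of Ifitm3 to Ifitm1 was higher in tumor by 0.57 ± 0.21, and that of Ifitm3 to Ifitm2 by 1.74 ± 0.16 (log2). The promoter window of Ifitm2 also holds 1 IRF element match, and that of Ifitm1 holds none. Probe sets of such similar genes can read each other's transcripts.

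Among the kinases of eIF2, 1 rose and 1 fell. While Eif2ak2 (PKR) rose, Eif2ak3, which encodes PERK, the kinase that senses stress of the endoplasmic reticulum, fell by 1.82 ± 0.16 (limma adjusted p = 2.2e-04). The fall of Eif2ak3 was -1.96, -1.83 and -1.67 within the arrays numbered 1, 2 and 3. Eif2ak1, the heme-regulated kinase, stood at -0.36 ± 0.24, and the amino acid sensor Eif2ak4 at -0.41 ± 0.18 (adjusted p = 0.511 and 0.239, and 0.0247 and 0.0118 with the block). The log2 ratio of Eif2ak2 to Eif2ak3 was higher in tumor by 4.58 ± 0.17. The ratio to Eif2ak1 was higher by 3.12 ± 0.09, and that to Eif2ak4 by 3.18 ± 0.13. Over 12 pairs compared in this way, Mx2 with Mx1 and Cmpk2 with Rsad2 included, every exact permutation p was 0.1 (0.1 adjusted), which is the smallest possible here.

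**Figure D2:**
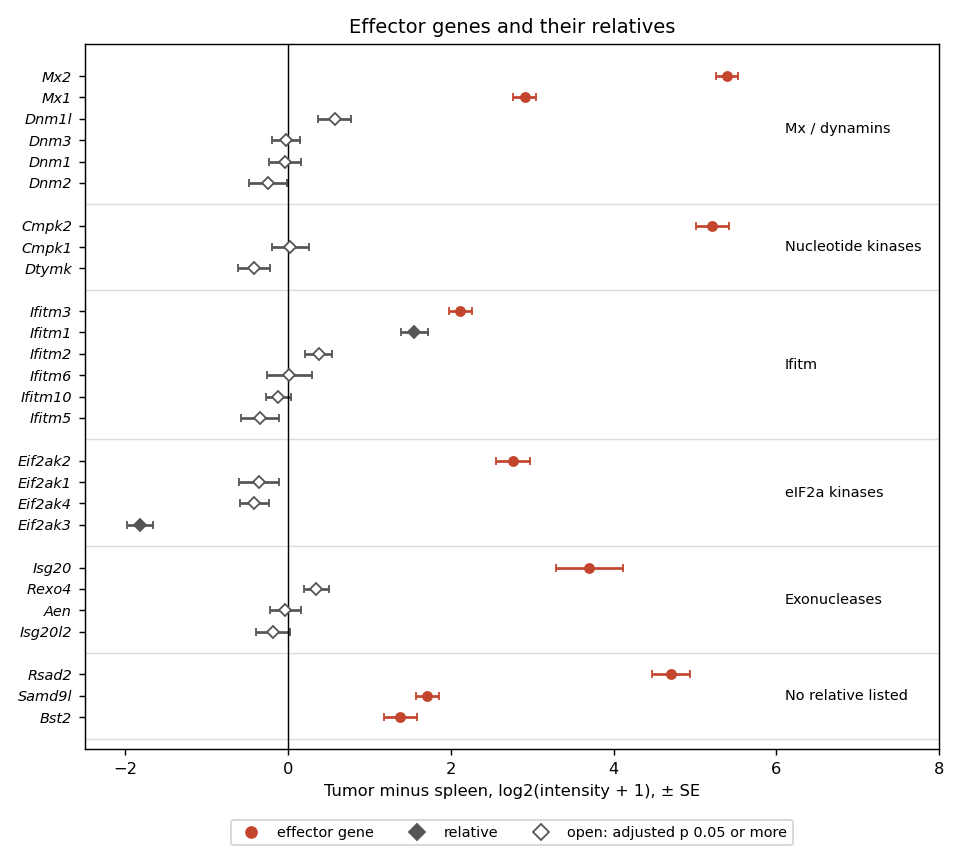
Tumor minus spleen difference (log2(intensity + 1), ± SE, 3 arrays per group) of the 9 effector genes in red and of 17 relatives in grey, by family, with open symbols where the adjusted p was 0.05 or more. Among the relatives, Ifitm1 lies at 1.55 and Eif2ak3 at -1.82, and the others are open and lie between -0.42 and 0.57.

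Genes that act with PKR were read next. Of 15 tested, 3 rose and 0 fell by limma, beside 5.73% and 4.85% of all tested genes, and the median was -0.14. At an unadjusted p under 0.05, 4 were higher and 2 lower, and with the block 4 were called higher and 2 lower, beside 11.7% and 17.3% of all tested genes. Adar, which edits double-stranded RNA and thereby limits PKR activation, rose by 1.75 ± 0.18 (limma adjusted p = 5.5e-04). Both regulatory subunits of the phosphatase that reverses eIF2 phosphorylation rose, Ppp1r15a by 0.94 ± 0.15 (adjusted p = 0.0045) and Ppp1r15b by 0.94 ± 0.17 (adjusted p = 0.0080). The PKR activator Prkra stood at -0.46 ± 0.15 (adjusted p = 0.104, and 0.0074 with the block). Stau1 stood at 0.57 ± 0.20 (adjusted p = 0.122, and 0.0034 with the block). Atf4 and Ddit3, transcription factors made when eIF2 is phosphorylated, stood at -0.50 ± 0.19 and -0.14 ± 0.14 (adjusted p = 0.169 and 0.726, and 0.0060 and 0.371 with the block). RNA levels do not measure phosphorylation of eIF2.

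Upstream of the effectors, the interferon receptor chains and Jak1 did not differ beyond the spread of the arrays, at 0.14 ± 0.19 for Ifnar1, -0.01 ± 0.21 for Ifnar2 and 0.00 ± 0.16 for Jak1. Tyk2 stood at 0.54 ± 0.18 (limma adjusted p = 0.117, and 0.0036 with the block). Of the genes of ISGF3, Stat2 rose by 2.69 ± 0.22 (adjusted p = 1.4e-04) and Irf9 by 1.52 ± 0.22 (adjusted p = 0.0034). The feedback inhibitors Socs1 (2.78 ± 0.21) and Usp18 (2.69 ± 0.14) rose too. In this list of 8 tested genes 4 rose and 0 fell by limma, beside 5.73% and 4.85% of all tested genes, and the median was 1.03. At an unadjusted p under 0.05, 5 were higher and 0 lower. With the block 5 were called higher and 0 lower, beside 11.7% and 17.3% of all tested genes.

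Factors that start interferon production were mixed, with 4 of 10 higher and 2 lower by limma and a median of 0.58. Of all tested genes 5.73% were called higher and 4.85% lower. With the block 6 were called higher and 2 lower in this list, beside 11.7% and 17.3% of all tested genes. Irf7, which is itself induced by interferon, rose by 4.42 ± 0.16 (limma adjusted p = 2.2e-06), Myd88 by 1.85 ± 0.20 and Irf1 by 1.80 ± 0.15. The adaptor Mavs fell by 0.95 ± 0.17 (adjusted p = 0.01, and 0.0564 without tumor 1). Ticam1 fell by 0.80 ± 0.19 and the kinase Tbk1 rose by 1.07 ± 0.26. Ticam1 lost its call without spleen 2, spleen 3, tumor 1 or tumor 2 (adjusted p up to 0.149), and Tbk1 without spleen 1, spleen 2, tumor 1 or tumor 3 (up to 0.129). Irf3 (-0.18 ± 0.17) and Sting1 (-0.01 ± 0.18) were not called. Irf8 stood at 0.45 ± 0.20 (limma adjusted p = 0.234, and 0.0084 with the block). For Ikbke the difference was 0.70 ± 0.20 (limma adjusted p = 0.0671, and 0.0020 with the block).

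Other antiviral effectors, from a list of 36 with 30 tested, rose in 30 of 30 cases, with 0 lower, also at an unadjusted p under 0.05 by limma (Shfl lost its call without tumor 1, adjusted p = 0.0532). Of all tested genes 5.73% were called higher and 4.85% lower. Their differences ran from 0.88 to 5.75 with a median of 3.20, beside 1.38 to 5.39 and 2.91 for the 9 genes described here. This list was written with earlier results of these arrays known. Oasl1, an RNA-sensor relative, had the largest difference (5.75 ± 0.14), and Ifit1, which binds foreign RNA, stood at 5.26 ± 0.18. The housekeeping list had 0 of 8 called in either direction, also at an unadjusted p under 0.05 by limma, with differences between -0.25 and 0.24.

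**Figure D3:**
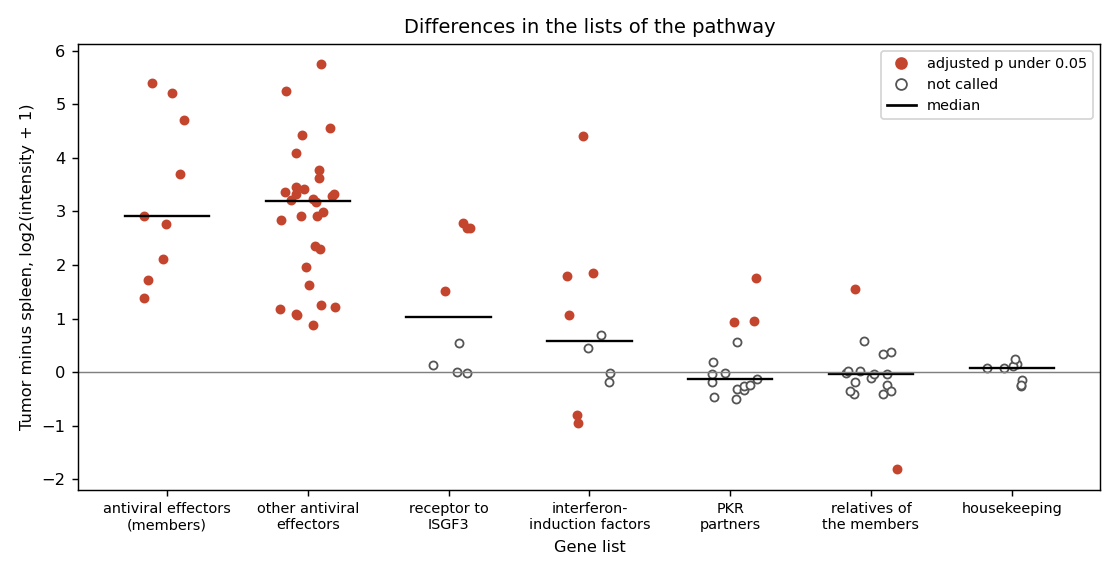
Tumor minus spleen difference (log2(intensity + 1)) of each tested gene in 7 lists, with filled points for an adjusted p under 0.05, open points for genes not called and a bar for the list's median. All points of the effector genes (median 2.91) and of the other antiviral effectors (median 3.20) are filled and above 0, while relatives of the members run from -1.82 to 1.55 (median -0.04) and housekeeping genes from -0.25 to 0.24 (median 0.08).

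The arrays numbered 3 stood apart in both groups, with medians of log2 intensity at 4.73 and 4.76, beside 4.50 to 4.51 on the others. Over all tested genes the median step from the mean of arrays 1 and 2 to array 3 was 0.29 in spleen and 0.28 in tumor. Isg20 went well beyond it, by 1.02 in spleen and 1.34 in tumor, higher than 98.2% and 99.7% of tested genes. Rsad2 was 0.79 higher on tumor 3 and 0.31 higher on spleen 3. Bst2 showed the reverse split, with 0.64 on spleen 3 and 0.13 on tumor 3. Mx1 and Samd9l were lower on tumor 3, at -0.24 and -0.22, although most genes were brighter there.

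The rises held within each array number. Isg20 stood at 3.47, 3.71 and 3.91 within numbers 1, 2 and 3, and Rsad2 at 4.49, 4.60 and 5.03. Bst2 stood at 1.52, 1.59 and 1.04, so its difference was smallest in the pair numbered 3. On the arrays numbered 1 and 2 alone all 9 genes were called higher (limma adjusted p between 0.0024 and 0.0042), beside 7.51% of all tested genes. With the array number as a block the SE of each of the 9 genes was smaller, such as 0.11 in place of 0.41 for Isg20 and 0.12 in place of 0.24 for Rsad2. All 9 were called higher in that fit too, beside 11.7% of all tested genes. What the array number stands for is not given in the labels, and the cause of the shift on number 3 was not tested.

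**Figure D4:**
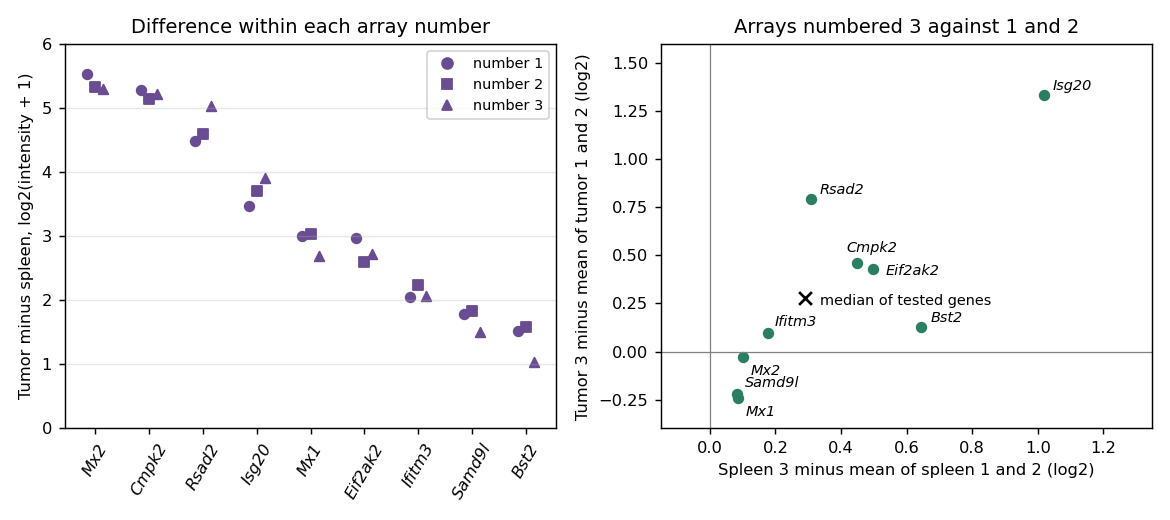
Left, tumor minus spleen difference (log2(intensity + 1)) of each effector gene within the arrays numbered 1, 2 and 3. Right, for the same genes, array 3 minus the mean of arrays 1 and 2 (log2), spleen on the x axis and tumor on the y axis, with the median of all tested genes as a cross. The differences keep the same sign in all 3 numbers, and Isg20 lies farthest from the cross, at 1.02 and 1.34.

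For each gene the 2 other tested genes with the most similar profile were found, by root-mean-square distance of mean-centred log2 values over the 6 arrays. Samd9l was nearest to Tor1aip2 (0.06) and Ogfr (0.08), and Ifitm3 to Rbm43 and Znfx1 (0.06 each). Eif2ak2 lay nearest to Stat2 (0.07) and Tnf (0.08), and Bst2 to Slamf6 and Glrp1 (0.08 each). Mx1 was closest to Gbp10 (0.11) and Usp18 (0.13), and Mx2 to Cd69 (0.12) and Trim30c (0.13). Cmpk2 was closest to Tnfsf10 (0.13) and Ifit1 (0.14), both nearer than Rsad2 (0.29), its neighbour in the genome. Rsad2 lay nearest to Il6 (0.16) and Ddx60 (0.20). Isg20 had the least close matches, Trim30d (0.23) and Rtp4 (0.31). These distances mostly reflect the size of the tumor minus spleen difference, and the genes share the same 6 arrays.

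Genes beside the effectors in the genome were read as well. Taking the 2 nearest protein-coding genes on each side of 7 members, 17 that are no members were tested, of which 3 were called higher, 1 lower and 13 not (limma), beside 5.73% called higher and 4.85% called lower of all tested genes. Besides Ifitm1, Heatr5b near Eif2ak2 (0.79 ± 0.19, adjusted p = 0.0328) and Hapln3 near Isg20 (0.85 ± 0.19, adjusted p = 0.0226) rose, and Hepacam2 near Samd9l fell by 0.55 ± 0.14 (adjusted p = 0.0406). Each of these last 3 calls was lost without spleen 1, spleen 2 or tumor 1, and that of Heatr5b also without tumor 3 and that of Hepacam2 without tumor 2 or tumor 3 (adjusted p up to 0.198).

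The sorted identity was checked on markers fixed for monocytes. All 8 were above the filter, which 18458 of 22180 genes passed, so this alone says little on identity. By limma 3 were called higher and 3 lower in tumor, beside 5.73% and 4.85% of all tested genes. The genes behind the sort included Itgam (CD11b), at a log2 level of 10.04 in spleen and 9.19 in tumor, and Ly6c2, at 6.81 and 8.29. Fcgr1 and Cd14 were the other markers called higher (3.56 ± 0.16 and 2.01 ± 0.17), and Ccr2 and Csf1r the others called lower (-0.93 ± 0.15 and -0.57 ± 0.15). Of these calls, those of Itgam, Ly6c2 and Csf1r were lost without some arrays, spleen 2 among them (limma adjusted p up to 0.173). Itgax, the gene of CD11c, against which the cells were sorted, was also read at 11.16 and 10.31. Of 5 tested dendritic cell genes 1 was called lower, Itgax, and 1 higher, Zbtb46, beside 4.85% and 5.73% of all tested genes. The call of Itgax was lost without tumor 1, and that of Zbtb46 without spleen 1, spleen 2 or tumor 2 (limma adjusted p up to 0.0627). Marker lists of T cells (6 tested), B cells (4), NK cells (4), neutrophils (6), melanocytes (4), stroma with endothelium (6) and epithelium (4) had 0 genes called higher in tumor (limma, 0 also at an unadjusted p under 0.05). Of all tested genes 5.73% were called higher, a share at which lists this short often hold 0 calls. Some of these markers were near the floor, such as Ms4a1 (log2 3.97 in spleen and 3.83 in tumor) and Gzma (3.43 and 3.71). Others, such as Mmp8 (10.93 and 10.25), were not. The part of such cells was not tested. Of 5 erythroid markers only Klf1 was tested, at log2 levels of 4.06 and 4.26, which is too few to read as a list. Cd3g of the T cell list and Mmp8 of the neutrophil list were called lower, beside 4.85% of all tested genes. The call of Mmp8 held only with tumor 3 or no array left out (limma adjusted p up to 0.141). The mean log2 level of the 5 melanocyte markers was 3.97 to 4.20 on spleen arrays and 3.96 to 4.10 on tumor arrays.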

How the data were processed

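The authors deposited linear intensities, 1 value for each probe set of an array, made with RMA per the submitters' processing notes. No version, setting or genome build is given in the sources used here. Array medians differ, so a step that brings arrays to 1 distribution is not visible in the values. Of 41345 probe sets, 23521 have 1 gene symbol in GEO's platform annotation, 1814 have several and 16010 have no listed gene. Where a gene had several probe sets, the one with the highest mean was used. Genes above the 25th percentile of the array on at least 3 arrays were tested (18458).

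Values were analysed as log2(intensity + 1), which understates folds of dim genes. Differences come from limma 3.58.1, run in R 4.3.3 with its functions lmFit and eBayes, two-sided and with group as the only term, with Benjamini-Hochberg adjustment over all tested genes. The script was tested on simulated data. The members and gene lists were chosen with earlier results of these data known. Genes open to naming were all members, the genes of smallest adjusted p and highest level in each list, all relatives, every tested PKR partner, marker genes, and the 2 nearest profiles per member. Beyond this rule, the list from interferon receptor to ISGF3 and the list of induction factors were named in full, and Shfl was named. Not every gene open to naming is named. The genes flanking the members were added after the data had been seen. Of the list genes, 1 older symbol was updated to Sting1 after the first look at the annotation. The planned test of further probe sets had no probe set to run on.

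As a check of pairing by replicate number, each array's deviations from its group mean were correlated across genes with those of the array of equal number, which gave 0.36, 0.44 and 0.71 for numbers 1, 2 and 3, all over the threshold of 0.1 set for pairing. Unequal numbers also correlated (0.46 for spleen 1 and tumor 2, 0.35 for spleen 2 and tumor 1), so the values set number 3 apart from the rest more than they pair 1 and 2. The replicate block is given beside the members, relatives and pathway genes whose call it changes, and beside some others.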

Additional observations from a re-analysis of the deposited data

How the results depend on the processing

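With 19 alternatives each, all 9 effector genes kept their direction, and 8 kept their call throughout. Several alternatives leave a member's difference as it is and can change only its error or call. These are the other filters, the mean of probe sets, the trended prior, the replicate block, the stricter threshold and treat. Bst2 lost its call only in limma's treat at 1.5-fold (1.38, adjusted p = 0.0632). Members called higher numbered 9 in each alternative except treat, where they numbered 8. Ranges were 2.79 to 3.02 for Mx1, 4.68 to 5.50 for Mx2 and 3.25 to 4.04 for Isg20. Calls over all genes numbered 1952, and 3506 with quantile normalization, 3289 with median centring, 3184 with cyclic loess, 7102 with array weights, 5346 with the replicate block, 2936 on numbers 1 and 2, 961 at an adjusted p under 0.01 and 507 with treat. Calls split into 1057 higher and 895 lower, and into 1585 and 1921 with quantile normalization, 1483 and 1806 with median centring and 1854 and 1330 with cyclic loess. Leaving out 1 array gave 1011 (tumor 1), 1031 (spleen 2) or 1147 (spleen 1), up to 1924. Scaling moved the median of all genes to between -0.06 and -0.01. Relatives called higher numbered 1, and 2 with quantile normalization, with median centring and on numbers 1 and 2, 3 with cyclic loess or array weights and 4 with the replicate block. Relatives called lower numbered 1, and 2 with median centring, 6 with array weights and 4 with the replicate block. PKR partners called higher numbered 1 with treat, and those called lower 4 with array weights, 2 with the replicate block and 1 on numbers 1 and 2. Induction factors called lower numbered 2, 0 to 2 with 1 array left out, and 0 at the stricter threshold and with treat. Housekeeping genes had 1 higher and 2 lower with array weights. The replicate block changed no call of a member. The cause of these changes was not tested. The number of arrays limits the precision.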
